A study of Mus musculus with 15 samples.

Results

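Smok2a, Smok2b, Tcp10c and the long noncoding RNA gene 2700054A10Rik lie within 13 to 14 Mb of mouse chromosome 17, in the region known as the t-complex. They were chosen from the deposited tables by name, as rows whose gene column held one of the 4 symbols, together with the ACF1 segments that overlapped their bounds. They were 4 of the 7814 genes named in any of the 6 H3 tables, and they had been singled out because of the values described here, so every value of theirs is a description and none was tested.

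The t-complex is a stretch of chromosome 17 that in some mice is inherited as a block, the t haplotype, and is passed on by males in excess because sperm carrying it outcompete the others. Smok2a and Smok2b encode sperm motility kinases, protein kinases expressed in the testis, whose family includes the t-complex responder of that distortion. Tcp10c belongs to the Tcp10 genes, testis-expressed t-complex genes that also occur in several near-identical copies. The RefSeq gene table types 2700054A10Rik as a long noncoding RNA. The samples came from another tissue, the nucleus accumbens, a part of the forebrain known for its role in reward.

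The mice were C57BL/6 in all groups, and the labels give neither age nor sex. Defeated mice had met a new CD1 aggressor for 10 minutes on each of 10 days. A social interaction test 24 hours after the last defeat parted them into susceptible and resilient animals, beside a control group. The nucleus accumbens was punched out at 48 hours, and each replicate pooled 10 mice. The design text speaks of replicates, but each group had 1 sample per target, so no spread between replicates could be given. Since punches hold many cell types, a change within cells and a change in which cells were present cannot be told apart, and the tissue could not be checked against marker genes in lists of chromatin positions.

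For the protein ACF1, which together with the ATPase SNF2H forms a complex that slides and spaces nucleosomes, 1 list per group split the genome into 200 bp steps, each in state E1 or E2. The files do not say which state stands for binding. Here a segment is a stretch of the minority state, E2. For histone H3, measured after digestion with micrococcal nuclease, the tables listed positions selected by the authors for each pair of groups, either as occupancy changes marked Up or Down or as nucleosome shifts in bp. Up was read as higher in the group named first, which the files do not state. With the opposite reading every H3 direction below turns round. Depth was unknown for all files. The segment lists held 749 segments in control, 1133 in susceptible and 716 in resilient mice.

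On mm9, the tables placed Smok2a at chr17:13414053-13420524 and Smok2b at chr17:13427736-13429320, both on the plus strand and 7212 bp apart. Tcp10c followed 118117 bp further on, at chr17:13547437-13570089 on the plus strand. The bounds of 2700054A10Rik were chr17:13679886-13746960 on the minus strand, so its start is the right-hand end. For Smok2b the tables' bounds spanned 1584 bp where the RefSeq gene table gives 6927 bp, so distances from its start depend on the annotation. The other lengths, 6471, 22652 and 67074 bp, were the same in both.

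Smok2a, Smok2b and Tcp10c belong to families of copies, and the windows around the gene starts show how alike the copies are. RefSeq promoter windows of GRCm38.p6, from 250 bases before the start to 50 after, were found for 3 of the 4 genes. Smok2a is the one without. The bounds of Smok2b differ between the sources. By the offset between the builds at Tcp10b and Tcp10c, on either side of it, its RefSeq start lies before the start used in the tables. Its window is therefore not at the start from which the tables count. The windows below pair Tcp10c with its neighbour Tcp10b and Smok2b with Smok3a, a family member on chromosome 5. All are written 5′ to 3′ on the plus strand, and capitals mark bases that differ from the partner or have no counterpart in it where the pair was aligned. Their coordinates are of GRCm38.p6 and are not comparable with the mm9 positions elsewhere in the text: chr17:13354322-13354621 for Tcp10c, chr17:13060861-13061160 for Tcp10b, chr17:13230013-13230312 for Smok2b and chr5:138021026-138021325 for Smok3a.
Tcp10c: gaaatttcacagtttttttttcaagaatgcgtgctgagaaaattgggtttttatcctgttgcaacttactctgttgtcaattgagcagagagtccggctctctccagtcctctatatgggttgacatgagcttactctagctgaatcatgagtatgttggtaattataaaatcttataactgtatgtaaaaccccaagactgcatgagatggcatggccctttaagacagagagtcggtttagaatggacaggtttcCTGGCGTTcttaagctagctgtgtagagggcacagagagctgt
Tcp10b: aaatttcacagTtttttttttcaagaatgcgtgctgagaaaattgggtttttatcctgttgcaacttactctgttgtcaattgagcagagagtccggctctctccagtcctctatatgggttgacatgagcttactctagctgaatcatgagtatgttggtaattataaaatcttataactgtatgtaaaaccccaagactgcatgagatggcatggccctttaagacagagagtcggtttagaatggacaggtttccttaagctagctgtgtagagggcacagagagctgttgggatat
Smok2b: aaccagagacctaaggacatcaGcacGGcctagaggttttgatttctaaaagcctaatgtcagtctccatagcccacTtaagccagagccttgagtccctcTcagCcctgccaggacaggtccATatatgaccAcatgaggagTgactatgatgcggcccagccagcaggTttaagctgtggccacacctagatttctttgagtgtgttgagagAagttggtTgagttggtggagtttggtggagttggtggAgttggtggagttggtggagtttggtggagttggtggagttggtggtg
Smok3a: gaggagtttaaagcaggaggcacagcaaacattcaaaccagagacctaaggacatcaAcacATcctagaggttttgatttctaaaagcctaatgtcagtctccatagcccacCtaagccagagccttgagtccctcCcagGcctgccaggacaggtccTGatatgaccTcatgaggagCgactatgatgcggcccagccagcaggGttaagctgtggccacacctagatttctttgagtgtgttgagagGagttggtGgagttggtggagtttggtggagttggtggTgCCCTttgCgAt

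Over 300 aligned bases the Tcp10c and Tcp10b windows were 97.0% identical, with 0 mismatches and 9 gap bases. The Tcp10a and Tcp10c windows were identical at 284 of 286 aligned bases (99.3%). Smok2b and Smok3a were identical at 245 of 265 (92.5%), with 14 mismatches. A run of 9 bases, ggtggagtt, occurred 7 times in the Smok2b window and 3 times in that of Smok3a. Only 4 of 32851 windows in the RefSeq table held it at least 3 times, those of Smok2b, Smok3a, Smok3b and Smok3c. The TATA-type run TATAAA, counting both strands, occurred once in the Tcp10c window and 0 times in those of Smok2b and 2700054A10Rik. It was found in 13.6% of all windows. The runs CCAAT and GGGCGG, searched in the same way, were found in 37.4% and 35.7% of all windows. The Tcp10c window held CCAAT once and GGGCGG 0 times, the Smok2b window neither, and the 2700054A10Rik window each once. How reads that match several copies were placed is not given in the sources used here, and its part in the results was not tested.

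**Figure D1:**
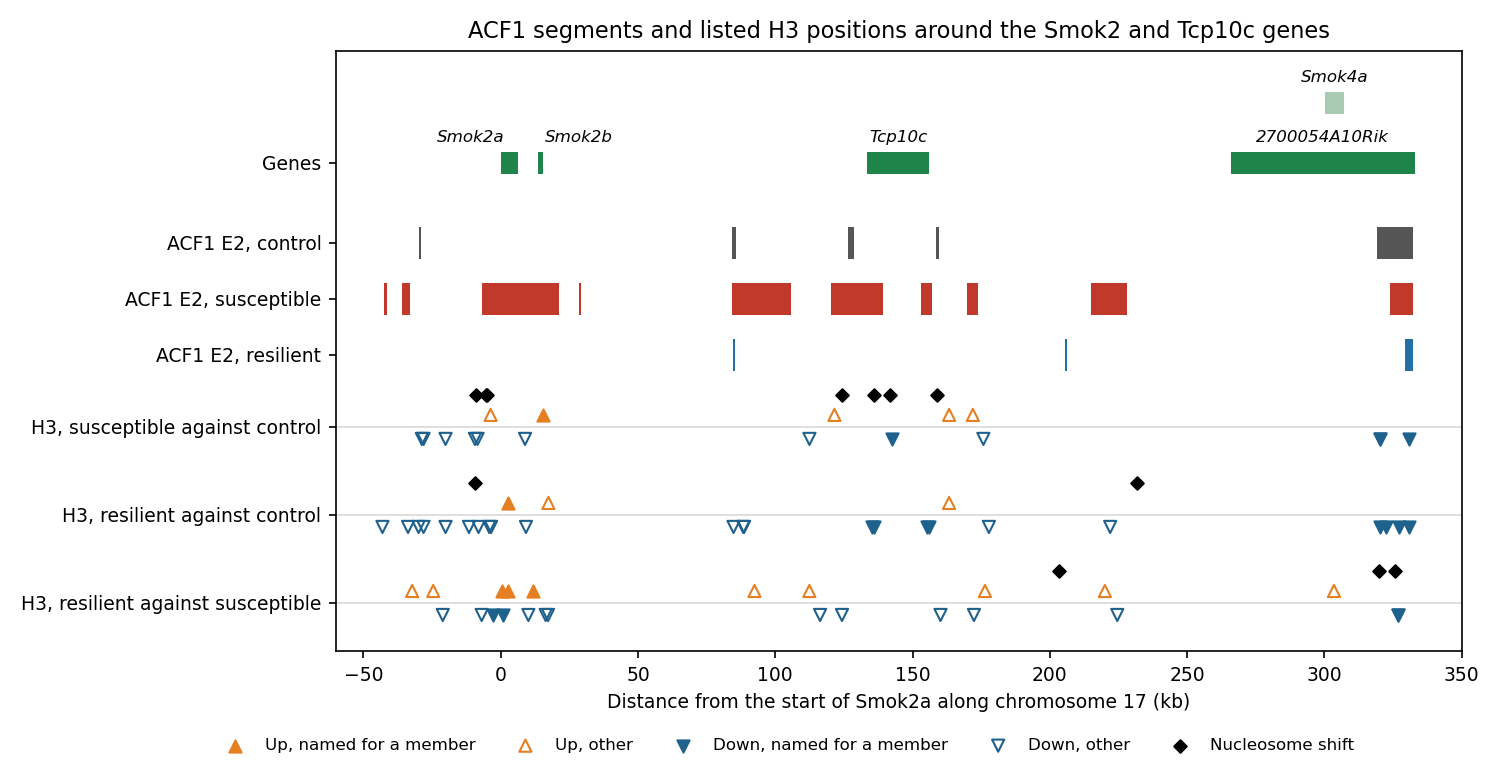
Map of the locus, with distance from the start of Smok2a in kb on the horizontal axis. Rows show gene bounds (dark green, the 4 genes), ACF1 segments in each group, and H3 positions in each table as triangles (up or down by direction, filled where named for 1 of the 4 genes) and diamonds (shifts). The Smok2 pair and both ends of Tcp10c lie in segments of the susceptible list alone, and segments of all 3 lists end at the same place inside 2700054A10Rik.

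Smok2a and Smok2b were covered from end to end in susceptible mice and not at all in the other groups. A susceptible segment at chr17:13407201-13435400, 28200 bp wide, held all 6471 bp of Smok2a and all 1584 bp of Smok2b. The control and the resilient list had 0 bp within either gene, and the nearest segment of another group lay 22200 bp away. By width this segment ranked 22 of 1133 in its list. Of the 7814 named genes, 2.55% held at least 1 bp of segment in susceptible mice, 1.89% in control and 1.47% in resilient mice. The genes were picked for this pattern, so nothing is read from those shares.

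Tcp10c was covered at both ends in susceptible mice and left uncovered in its middle. A 19200 bp segment (chr17:13534201-13553400) ran over the start of the gene and 5963 bp of it, and a 4200 bp segment (chr17:13567001-13571200) took in 3089 bp at the far end. Together they made up 40.0% of the gene. In controls 0 bp of the gene were covered, but a segment of 2000 bp lay 4837 bp before it, within the stretch of the first susceptible segment, and another of 1400 bp lay 2311 bp beyond its end. In resilient mice 0 bp were covered and no segment lay within 5000 bp. The control list thus flanked the gene that the susceptible list entered from either side.

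2700054A10Rik was the member with a segment in every group. The segment was 13200 bp wide in controls (chr17:13733201-13746400), 8600 bp in the susceptible list (chr17:13737801-13746400) and 3000 bp in the resilient one (chr17:13743401-13746400). These lengths were 19.7%, 12.8% and 4.47% of the gene. All 3 segments ended at the same coordinate, 560 bp inside the gene start, and differed in how far they reached into the gene. The order of groups here, control above susceptible above resilient, differed from that at the other 3 genes, where susceptible mice alone had cover. In ranks by width within each list, the segment stood 47 of 749 in controls, 117 of 1133 in susceptible and 193 of 716 in resilient mice.

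Summed over the 4 genes, segments covered 13200 bp in the control list, 25707 bp in the susceptible and 3000 bp in the resilient one. With gene bounds widened by 5000 bp the susceptible sum was 49030 bp. Of the 2 susceptible segments at the genes that had no segment of another group within 1000 bp, 1 remained when the distance was set to 5000 bp, since the nearest other segment to the far end of Tcp10c was a control segment 1200 bp away.

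**Figure D2:**
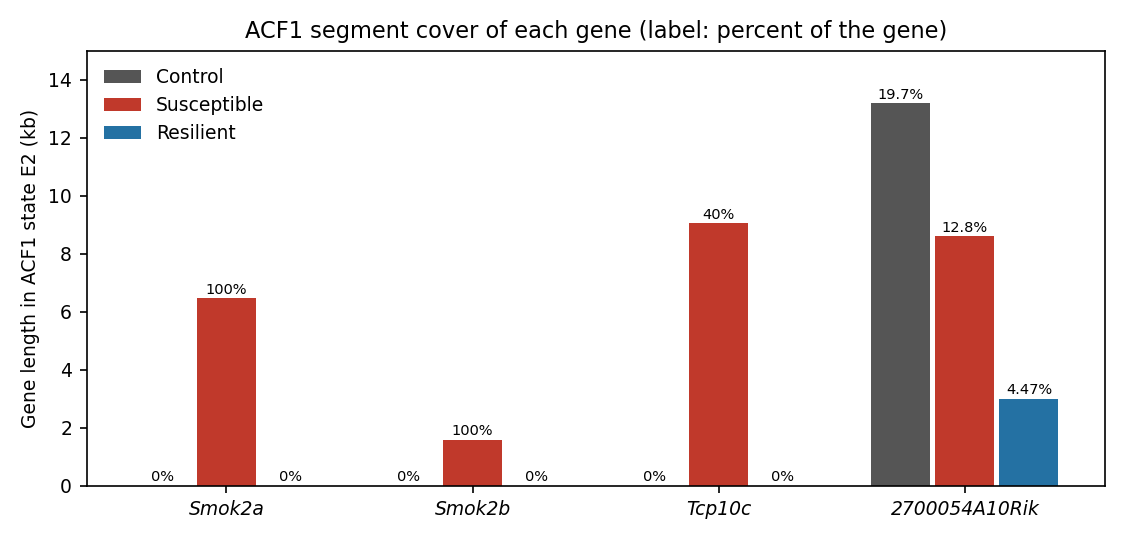
Length of each gene in ACF1 state E2, in kb, for control (grey), susceptible (red) and resilient (blue) mice, with 1 list per group and no error to show. Labels give the percent of the gene. Susceptible bars stand alone at Smok2a, Smok2b and Tcp10c, and at 2700054A10Rik the bars stand at 13200, 8600 and 3000 bp.

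H3 occupancy positions of the 4 genes numbered 21 in the authors' deposited tables, 5 Up and 16 Down, at 18 distinct coordinates. By place, 11 of them lay within about 3 kb of a gene start and 10 further into a gene body.

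In susceptible mice set against controls the 4 genes held 5 occupancy positions, 1 Up and 4 Down. Smok2b held the Up position, and 23.1% of all named genes held at least 1 Up position in that table. Tcp10c and 2700054A10Rik held the Down positions, with 46.2% of all named genes and 37.7% of those outside chromosome 1 holding at least 1. The Up share of the 4 genes was 20.0%, against 14.8% over the whole table, 40.4% without chromosome 1, where Down positions were in great excess, and 42.0% on chromosome 17. The share was thus above the first of these backgrounds and below the others.

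Resilient mice set against controls gave the 4 genes 9 positions, 1 Up and 8 Down. An Up position, held here by Smok2a, was held by 22.1% of all named genes, and a Down position, held here by Tcp10c and 2700054A10Rik, by 34.7%. The Up share was 11.1%, against 38.3% over the whole table and 33.6% on chromosome 17.

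Resilient mice set against susceptible ones gave the 4 genes 7 positions, 3 Up and 4 Down. At least 1 Up position was held by 26.5% of all named genes, among them Smok2a and Smok2b, and at least 1 Down position by 26.2%, among them Smok2a and 2700054A10Rik. The Up share was 42.9%, against 48.9% over the whole table. With 5, 9 and 7 positions that lie close together on 4 chosen genes, these shares cannot be judged against their backgrounds. With gene bounds widened by 5000 bp, the Down positions of this table numbered 8, and the Up positions of each table against controls numbered 2.

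Over the 3 tables, whose Up shares over all positions were 14.8%, 38.3% and 48.9%, Tcp10c had 5 Down entries of 5 and 2700054A10Rik 9 of 9, while Smok2b had 2 Up entries of 2 and Smok2a 3 of 5. With each coordinate counted once, 2700054A10Rik had 7 Down coordinates and Smok2a 2 Up and 2 Down. Positions of 1 gene are not independent of each other, the tables share groups, and no difference in direction between the genes was tested. As for number, 204 of the other genes outside chromosome 1 (3.09% of 6605 with a position) held at least the 9 positions of 2700054A10Rik, and 712 (10.8%) at least the 5 of Smok2a or of Tcp10c. Of those 6605 genes, 49.6% held at least the 2 of Smok2b. These counts take no account of gene length. Per 100 kb of gene they came to 13.4 for 2700054A10Rik, 22.1 for Tcp10c, 77.3 for Smok2a and 126 for Smok2b. Positions before the gene start are included, which weighs most in short genes. The value of Smok2b rests on the 1584 bp of the tables' bounds, where RefSeq gives 6927 bp. Of its 2 positions, 1 lies before those bounds, so its value and its place above Smok2a depend on the annotation. No density over all genes is given beside these values.

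**Figure D3:**
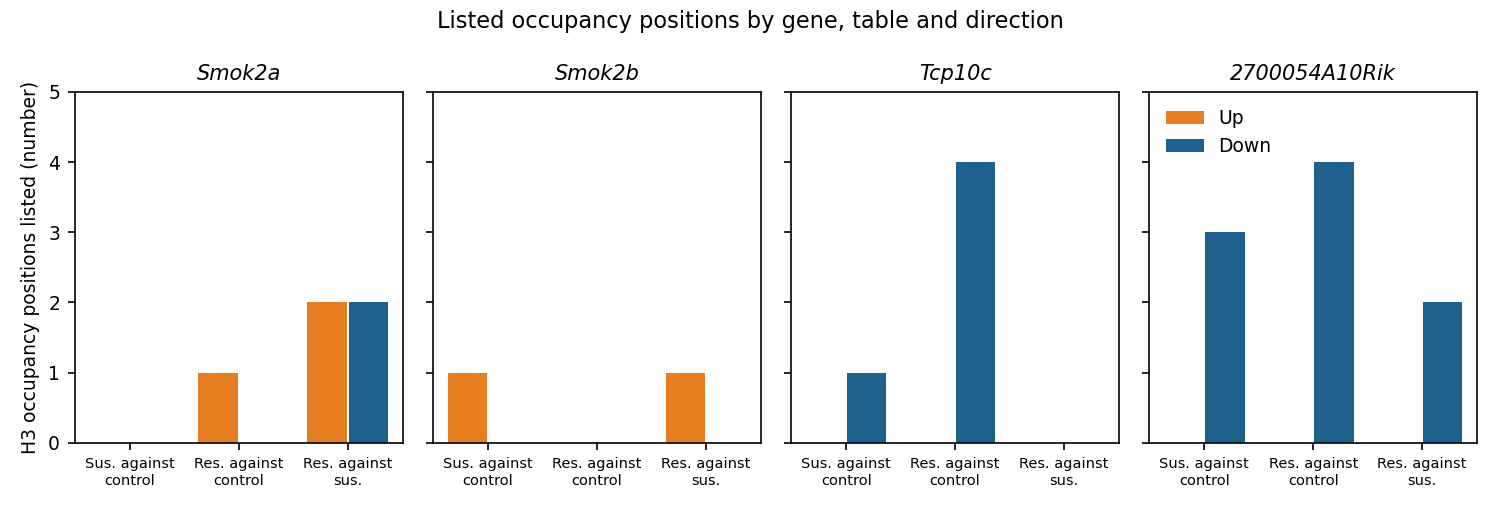
Number of H3 occupancy positions listed for each gene in each table, Up in orange and Down in blue (Sus., susceptible; Res., resilient). Tcp10c and 2700054A10Rik have Down bars only, and the Up bars belong to Smok2a and Smok2b.

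At Smok2a, H3 occupancy was listed in both directions within a few kb of the gene start. In resilient against susceptible mice the authors' deposited table listed 2 Up positions, 468 and 2538 bp after the start (13414522 and 13416592), and 2 Down positions, one 968 bp after it (13415022) and one before it, at -2661 bp (13411392). The first 2 positions after the start were 500 bp apart and opposite in direction. In resilient against control the table listed 1 position, Up, at 13416592, the same coordinate as an Up position of the other table. Resilient mice are the first group of both tables, so a single library can give such a match. In susceptible against control 0 positions were named for Smok2a. All 5 positions lay in the susceptible segment, which follows largely from its covering the gene from end to end.

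At Smok2b both positions were Up. One, in susceptible against control, lay 1565 bp after the start (13429302), near the far end of the bounds given. The other, in resilient against susceptible, lay before the start of those bounds, at -2014 bp (13425722). By the offset between the builds described above, that coordinate lies after the RefSeq start. The susceptible segment of Smok2a, which covered Smok2b from end to end as well, held both. Resilient against control listed 0 positions for the gene.

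At Tcp10c every listed position was lower than in controls. For resilient against control, the authors' deposited table held 4 Down positions in 2 pairs, at 1744 and 2484 bp from the start (13549182 and 13549922) and at 22024 and 22484 bp (13569462 and 13569922). The first pair fell in the susceptible segment over the start of the gene and the second in that over its far end. In susceptible against control 1 position was Down, 9044 bp from the start (13556482), between those segments and 3082 bp from the nearer one. Resilient against susceptible listed 0 positions for Tcp10c.

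Tcp10c also held nucleosome shifts in susceptible mice against controls, namely, from the authors' deposited table, 80 bp at 13549922 and 70 bp at 13555712. The first of these stands at the same coordinate as one of the Down positions of resilient against control. Sizes in all tables ran from 55 to 85 bp, and in this table the median was 70 bp, with 20.7% of its 3942 shifts at 80 bp or more. At least 1 shift was listed for 7.31% of the 7814 named genes in this table. Resilient against control listed 612 shifts and resilient against susceptible 561. Yet the 1 Mb bins outside chromosome 1 with a shift numbered 420 in susceptible against control, 406 and 370. Shares and sizes without chromosome 1 were not computed, so the 70 bp, 20.7% and 7.31% cannot serve as a background for chromosome 17. With bounds widened by 5000 bp the shifts of the 4 genes in susceptible against control numbered 4.

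At 2700054A10Rik all positions were Down in each table. For susceptible against control, the authors' deposited table held 3, at 2118, 12578 and 12728 bp from the start (13744842, 13734382 and 13734232). For resilient against control it held 4, at 2118, 5928, 10468 and 12728 bp (13744842, 13741032, 13736492 and 13734232). The coordinates 13744842 and 13734232 were thus Down in each of these tables, which share the control library. Resilient against susceptible held 2 positions 130 bp apart, at 6158 and 6288 bp (13740802 and 13740672). All 9 lay in the control segment, 5 in the susceptible and 2 in the resilient one. The share of all listed positions that lay in segments was not computed, so these counts have no background. The 2 in the resilient segment were the entries of both tables at 13744842, the listed coordinate nearest to the gene start.

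Shifts at 2700054A10Rik were listed for resilient against susceptible, -80 bp at 13733942 and 60 bp at 13739782, in a table where 1.63% of the named genes held one. Resilient against control listed 0 shifts for the 4 genes, with 1.96% of the named genes holding one.

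Of the other copies on the lists of both families, 3 were named in the tables, and each held 1 position and no segment. The other 4, all Smok genes, had no bounds in the tables and their segments were not counted. Tcp10b, on mm9 at chr17:13253976-13275092, had 1 position, Down in susceptible against control, and Tcp10a, at chr17:7529008-7550209, had 1, Up in resilient against control. Both had 0 bp of segment in every list. Smok4a, which RefSeq types as a transcribed pseudogene, lies within the bounds of 2700054A10Rik at chr17:13714321-13721300. It had 1 position, Up in resilient against susceptible, and 0 bp of segment. Of Tcp10a, Tcp10b and Tcp10c, whose start windows were near-identical, Tcp10c alone held segment within its bounds. Those windows are 300 bases long, and no sequence was compared over the rest of the genes or over the segments. Whether likeness of the copies plays a part in the segments was not tested.

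Of a list of 72 other t-complex and neighbouring genes of proximal chromosome 17, 25 were named in the tables and 1 of these held a segment, Park2, a ubiquitin ligase gene, with 800 bp in controls. In susceptible against control, Up positions were held by 9 of the 25 (36.0%, against 23.1% of all named genes). Down positions were held by 11 (44.0%, against 46.2%, and against 37.7% of the named genes outside chromosome 1). In resilient against control the numbers were 4 (16.0%, against 22.1%) and 11 (44.0%, against 34.7%). In resilient against susceptible they were 11 (44.0%, against 26.5%) and 7 (28.0%, against 26.2%). These genes share a stretch of 1 chromosome, and the shares were not tested. Airn, the noncoding RNA that silences Igf2r on the paternal chromosome, held 3 Up positions in the first table, 1 Down in the second, and 1 Up and 1 Down in the third. Tcte2, the nearest named gene beyond 2700054A10Rik, held 1 Up position in the first of these tables and 1 Down position in the second. Mas1, Pnldc1 and Acat2, on the other side, held 1 position each.

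The 1 Mb of the 4 genes was among the fullest of chromosome 17. Its occupancy positions numbered 23 in the table of susceptible against control, 29 in that of resilient against control, and 26 in that of resilient against susceptible. The medians of 92 other 1 Mb bins of the chromosome were 7, 7.5 and 7, and the highest of those bins held 27, 19 and 26. Among the 2238, 2227 and 2238 bins outside chromosome 1 with a position, 14, 2 and 5 held more. The 4 genes were chosen on these values, and the counts include their 5, 9 and 7 positions. The place of the bin among the others is therefore a description only. In resilient against control 26 of the 29 were Down, an Up share of 10.3% against 33.6% for the chromosome. In the other tables the Up shares of the bin were 34.8% and 42.3%. Shifts in the bin numbered 7, 2 and 3, against a median of 0 in the other bins of the chromosome, the highest of which held 4, 3 and 4.

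**Figure D4:**
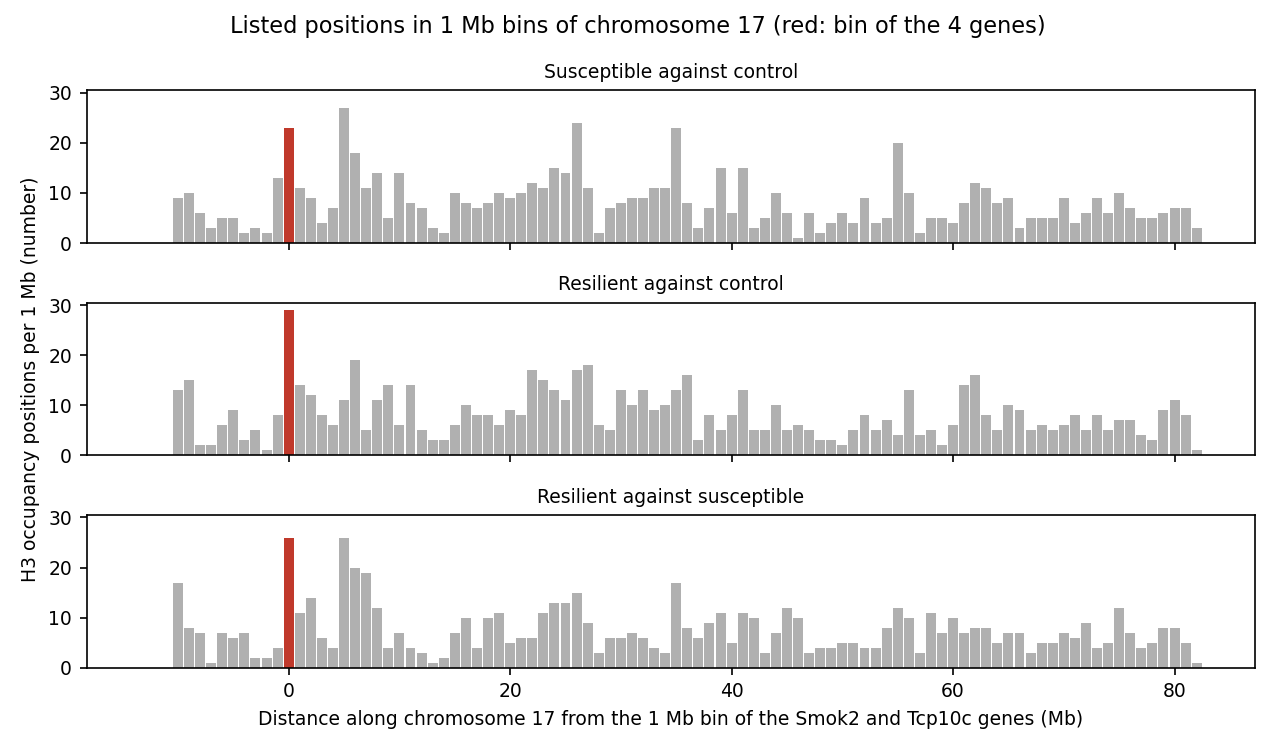
H3 occupancy positions in each 1 Mb bin of chromosome 17, by table, against distance from the bin of the 4 genes in Mb. The red bar, with 23, 29 and 26 positions, is the bin of the 4 genes. It is the tallest in resilient against control and tied for the tallest in resilient against susceptible.

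Segment cover of the same 1 Mb differed between the lists far more than cover of the genome did. It was 18800 bp in the control list, 104000 bp in the susceptible and 4200 bp in the resilient one, that is 1.88%, 10.4% and 0.42% of the bin, where the genome as a whole was at 0.0983%, 0.160% and 0.108%. Susceptible mice had 10 segments there with a median width of 6400 bp, against 1000 bp over their whole list. Controls had 5 with a median of 1400 bp, against 1000 bp over their list, and resilient mice 3 with a median of 600 bp, below the 1200 bp of theirs. By covered length the bin ranked 10 of 704 bins with a segment in susceptible mice, 23 of 512 in controls and 74 of 451 in resilient mice. In susceptible mice it held 48.8% of all segment length on chromosome 17, in controls 21.3% and in resilient mice 6.42%. The bin was taken because it holds the genes described above, which were chosen on these values, and its cover includes theirs. Its difference from the genome, its ranks and its shares are therefore descriptions only, and none was tested.

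Genes with the most similar pattern of listed positions were sought among 1362 genes with at least 5 occupancy positions, by the cosine between the Up and Down counts in the 3 tables. Nearest to 2700054A10Rik were Prlr and Rap1gap2 (cosine 0.993 for both) and Cadps (0.990), each Down in every table with 6, 6 and 10 positions. Nearest to Tcp10c were AI661453 (0.976), Pcdha4-g (0.972) and Sgcd (0.972). Nearest to Smok2a were Tead4 (0.969), Rai14 (0.943) and Rgs6 (0.915), each with Up and Down positions in resilient against susceptible. All 9 genes had 0 bp of segment in all 3 lists, so the likeness covers the H3 counts and not the ACF1 cover. With a handful of positions per gene, these values describe small whole numbers.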

How the data were processed

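Chromatin of pooled nucleus accumbens punches was immunoprecipitated for ACF1 or histone H3 and read with 100 bp reads, per the labels' protocols. Libraries had 19 PCR cycles for ACF1 and 15 for H3. CASAVA 1.8.2 and the build mm9 are named in the submitters' processing notes, while for the aligner and the programs behind the segments and tables nothing is given in the sources used here. The authors' deposited files gave a state label per 200 bp step (ACF1), a direction per selected H3 position, and, as a score in bp, each shift and the distance from the gene start. The pairs of groups were read from the names of the tables. Of 15 samples, 3 ACF1 and 3 H3 samples were used, and the other 9 (SNF2H and inputs) were not analysed here.

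Positions were assigned to genes by the gene column, and segments by at least 1 bp of overlap with the gene bounds. Positions and segments are 1-based, and gene bounds are as deposited. Percentages of named genes refer to genes with at least 1 listed position in any table, so genes never listed are not in them. Counts are descriptions: no test was made, since each group or pair had 1 result, and precision is limited by unknown depth. The counting functions were checked on made-up positions and segments. Named genes were the 4 members, the listed genes of the Smok, Tcp10 and t-complex lists, the genes within 13 to 14 Mb of chromosome 17, and the 3 genes nearest in pattern to each member with at least 5 positions. The members and lists were chosen with earlier results of these data known. Promoter windows were aligned with Biopython 1.88, values were computed with pandas 2.3.3 and scipy 1.17.1 in Python 3.11.15, and figures were drawn with matplotlib 3.10.9.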

Additional observations from a re-analysis of the deposited data

How the results depend on the processing

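Of 58 values under alternative settings, 49 stayed within 1.5 times of the value given above (for the Up shares, within the exact Clopper-Pearson 95% interval of the share, which treats positions as independent, and of the same sign). Widening the gene bounds by 5000 bp raised the Up positions from 1 to 2 in both tables against control, the Down positions of resilient against susceptible from 4 to 8, the shifts of susceptible against control from 2 to 4, and the susceptible cover from 25707 to 49030 bp. More sequence is counted under that setting. Counting positions within 1000 bp as shared raised the matches between resilient against control and resilient against susceptible from 1 to 2. Requiring 5000 bp to any other segment lowered the susceptible segments found in no other list from 2 to 1. The Up share in susceptible against control was 5.22 percentage points above that of all positions, but -20.4 points from it without chromosome 1 and -22.0 points from that of chromosome 17. Cover within 1000 bp of the listed positions was added after seeing the data, as was the share of genes without chromosome 1. No paired analysis was possible because each group had 1 sample per target. For the same reason no replicate could be left out. Depth is unknown, so a segment or position missing from a list may have been under the authors' threshold.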

Other observations

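Most listed positions had no gene name, around the Smok2 and Tcp10 genes as elsewhere. Of the occupancy positions within 13 to 14 Mb of chromosome 17, 13 of 23 in susceptible against control, 19 of 29 in resilient against control and 17 of 26 in resilient against susceptible were named for no gene, that is 56.5%, 65.5% and 65.4%. Over all chromosomes the shares were 65.6%, 66.3% and 67.6%. In the authors' deposited tables these unnamed positions were 9, 17 and 10 times Down. Of them, 4, 9 and 8 lay in susceptible segments, 0, 1 and 0 in control segments, and 0, 1 and 0 in resilient ones. No share of all listed positions in segments was computed to set beside these counts. The unnamed coordinates 13385952 and 13393962, before Smok2a, were Down in both tables against control, which share the control library.

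Wide susceptible segments also lay between the genes. One of 21400 bp at chr17:13498201-13519600 (mm9) held the whole of a 1400 bp control segment that began at the same coordinate and of a 600 bp resilient one at chr17:13498601-13499200. Another of 13000 bp at chr17:13629001-13642000 had no segment of another group nearer than 8800 bp. Before Smok2a, the coordinate 13404672 was listed as a shift of 60 bp in resilient against control and as Down in susceptible against control.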
